A study of Mus musculus with 3 samples.

Results

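The adenosine pathway was followed in sorted natural killer (NK) cells through 4 genes of the 25906 in the deposited gene lists. Entpd1 encodes CD39, the ectoenzyme that removes phosphates from extracellular ATP and ADP. Nt5e encodes CD73, the ectoenzyme that turns the resulting AMP into adenosine. Adora2a encodes the A2A receptor for adenosine, and Ada encodes adenosine deaminase, which turns adenosine into inosine. The genes were chosen by symbol for their place in this pathway, not by a rule on their values. Earlier results of these data were known when they were chosen. Each symbol matched 1 row of the lists.

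ATP released by stressed or dying cells acts as a danger signal, whereas the adenosine made from it dampens immune responses. The A2A receptor couples to the stimulatory G protein that raises cyclic AMP (cAMP), and in NK cells this signal is known to restrain killing and cytokine release. CD39 and CD73 are widely studied in tumours because they stand in series, so that a cell or its neighbours can supply either step.

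Wild-type, female 9-weeks-old mice gave lungs and blood, from which live cells positive for NK1.1 and NKp46 were sorted, after depletion of cells stained for T cell, B cell and other lineage markers, and sequenced in 3 droplet libraries. The naive mice received no tumour cells, and the others were given 100000 PyMT mammary tumour cells intravenously 6 h or 14 days before they were killed. Lung and blood cells of a time point were marked by hashtag antibodies and shared a library. By the authors' methods, lungs were dissociated and digested with collagenase, whereas blood only had its red cells lysed in the cold. Tissue and handling therefore cannot be told apart in any lung over blood ratio. Each time point was 1 library, with no replicate, so time point and library cannot be told apart. A group came from several mice, whose cells carry no mark of the animal.

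Cells with hashtag B0304 were taken as lung cells and those with B0306 as blood cells, from the order in which the design text lists tissues and hashtags. This gave 3676 lung and 4367 blood cells in the naive library, 4680 and 2746 at 6 h, and 3575 and 2069 at 14 days. The median cell held 5909.5 UMIs (unique molecule counts) in naive lung and 7524 in 14-day blood, the lowest and highest of the 6 groups. The libraries shared 16 barcodes (naive and 6 h), 11 (naive and 14 days) and 7 (6 h and 14 days). Each of 10 NK cell markers was counted in every group, and together they had 17493 to 25121 CPM (UMIs per 1000000 UMIs), against at most 1771 for any other list. Markers of B, endothelial and epithelial cells summed to at most 4.61 CPM in any group, with the endothelial maximum in 14-day lung. Myeloid markers summed to 17.1 CPM in naive lung, the lowest, and 95.1 in 14-day blood, the highest.

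Levels are the UMIs of a gene summed over the cells of a group and scaled to CPM, with exact Poisson 95% intervals. Intervals of levels, ratios and shares cover counting error only and not the spread between mice, so no test was made. A ratio of 1.5-fold or more is called past the fold where the higher group reaches 5 CPM. Since detection depends on length and on the 3' end of a transcript, levels were compared between groups and not between the 4 genes.

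CD39 transcript was present in every group and was highest in lung before and shortly after tumour cell injection. Entpd1 (ENSMUSG00000048120, chromosome 19 from 40612366 to 40741602, plus strand, GENCODE M21 on GRCm38) had 186 CPM (95% CI 180.5 to 192) in naive lung and 136 (132 to 140.5) in naive blood. At 6 h it had 173 CPM (169 to 177) in lung and 131 (126 to 136) in blood. At 14 days lung had 131 CPM (126 to 135) and blood 145 (139 to 150.5). In CPM, lung therefore stood above blood at the first 2 time points and below it at 14 days. The median lung over blood log2 ratio of all tested genes was nearly the same throughout, at -0.10 in naive mice, -0.10 at 6 h and -0.11 at 14 days. In the order of levels, naive blood, 6 h blood and 14-day lung were not apart within counting error. The lung over blood ratio was 0.45 on the log2 scale (95% CI 0.39 to 0.51) in naive mice, 0.40 (0.34 to 0.47) at 6 h and -0.15 (-0.22 to -0.07) at 14 days, none past 1.5-fold.

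Over time, lung Entpd1 was 1.42-fold lower at 14 days than in naive mice (log2 ratio -0.51, 95% CI -0.57 to -0.45), while blood Entpd1 differed by 0.09 (0.01 to 0.16). The lung over blood ratio at 14 days lay 0.60 below the naive one on the log2 scale (difference -0.60, 95% CI -0.69 to -0.50). At 6 h the change from naive was -0.10 in lung and -0.06 in blood. After each cell was thinned to 3000 UMIs, Entpd1 was found in 32.5% of naive lung, 27.5% of naive blood, 32.0% of 6 h lung and 27.5% of 6 h blood cells, and at 14 days in 28.9% of lung and 31.8% of blood cells. Without thinning the shares lay between 41.2% in naive blood and 51.5% in 14-day blood. By an estimated limit, the lowest over markers of other cells, free RNA could put a UMI in at most 1.04% of thinned cells.

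CD73 transcript was sparse in every group and highest in 14-day lung. Nt5e (ENSMUSG00000032420, chromosome 9 from 88327197 to 88372092, plus strand) had 10.5 CPM (95% CI 9.21 to 11.9) in naive lung and 6.04 (5.19 to 6.98) in naive blood. At 6 h it had 12.9 CPM (11.8 to 14.1) in lung and 6.75 (5.71 to 7.92) in blood. At 14 days it had 32.7 CPM (30.6 to 34.9) in lung, from 921 UMIs, and 4.31 (3.38 to 5.42) in blood, from 73. Every lung group lay above every blood group, and only naive and 6 h blood were not apart in the order.

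Lung over blood, Nt5e was past the fold in all 3 libraries, at 1.74-fold in naive mice (95% CI 1.43 to 2.12), 1.91-fold at 6 h (1.59 to 2.32) and 7.58-fold at 14 days (5.97 to 9.76). Between 14 days and naive, lung Nt5e was 3.12-fold higher (2.71 to 3.60). At 6 h the lung ratio over naive was 1.23-fold (1.05 to 1.44), below the fold. In blood, Nt5e at 14 days was -0.49 from naive on the log2 scale (95% CI -0.90 to -0.09). The lung over blood ratio grew by 2.13 on the log2 scale between the naive and the 14-day library (95% CI 1.69 to 2.57).

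Depth per cell changed the size of these values. Cells with Nt5e in 14-day lung had a median of 9167.5 UMIs, against 6784 for cells without it, and the 110 cells with 3 or more Nt5e UMIs had 11129. With every cell thinned to 3000 UMIs, 14-day lung had 25.8 CPM of Nt5e and blood 5.33, a ratio of 4.84-fold (95% CI 3.37 to 7.18), and the lung ratio of 14 days over naive was 2.48-fold (1.99 to 3.12). Thinned, the blood ratio of 14 days over naive was -0.09 (-0.73 to 0.52), so that the lower blood value was not detectable at this depth.

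The higher Nt5e level in 14-day lung went with more cells with a UMI. Thinned, Nt5e was found in 6.30% of 14-day lung cells (95% CI 5.53 to 7.16), against 2.53% in naive lung (2.05 to 3.10) and 2.72% in 6 h lung (2.27 to 3.22). The blood shares were 1.44%, 1.65% and 1.55% at the 3 time points in turn. By the same estimated limit, free RNA could account for at most 0.104% of cells. Thinned cells with Nt5e held 1.23 UMIs each in naive and in 14-day lung, close to the floor of 1 at this depth. Unthinned, 436 cells of 14-day lung (12.2%) held the 921 UMIs and 161 cells of naive lung (4.38%) held 246, and cells with 3 or more made up 3.08% and 0.408%. In 14-day lung, 101 of the 3575 cells were enough to reach 50% of all Nt5e UMIs, and the leading cell held 2.28%.

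**Figure D1:**
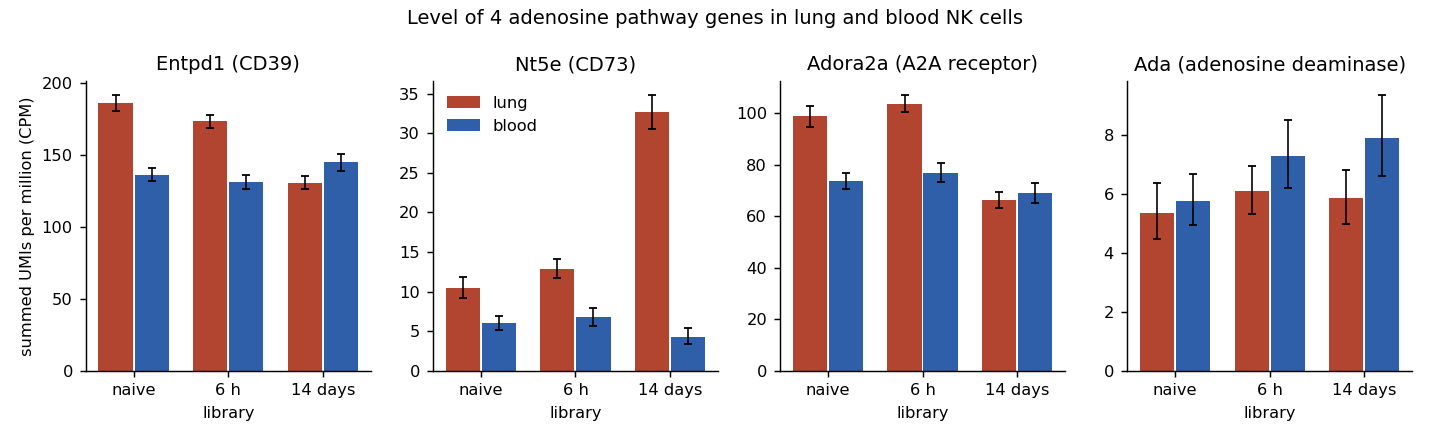
Level (CPM) of Entpd1, Nt5e, Adora2a and Ada in lung (red) and blood (blue) NK cells of the naive, 6 h and 14-day libraries; bars are group sums and error bars exact Poisson 95% intervals for counting error, with 1 library per time point. Nt5e reaches 32.7 CPM in 14-day lung, while Entpd1 and Adora2a in lung are lower at 14 days (131 and 66.3 CPM) than in naive mice (186 and 98.7 CPM).

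The adenosine receptor, like CD39, was highest in lung of naive and 6 h mice. Adora2a (ENSMUSG00000020178, chromosome 10 from 75316877 to 75334784, plus strand) had 98.7 CPM (95% CI 94.7 to 103) in naive lung and 73.6 (70.5 to 76.7) in naive blood. At 6 h it had 104 CPM (100.4 to 107) in lung and 76.7 (73.1 to 80.5) in blood. At 14 days it had 66.3 CPM (63.3 to 69.4) in lung and 68.9 (65.0 to 73.0) in blood. Naive and 6 h lung stood apart from the other groups but not from each other, and the neighbours among the remaining 4 were not apart.

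Lung Adora2a was 1.49-fold lower at 14 days than in naive mice (log2 ratio -0.57, 95% CI -0.66 to -0.49), just under the fold. The lung over blood ratio was 0.42 on the log2 scale (0.34 to 0.51) in naive mice, 0.43 (0.35 to 0.52) at 6 h and -0.06 (-0.16 to 0.05) at 14 days, and the naive and 14-day ratios differed by -0.48 (-0.61 to -0.34). In blood the ratio of 14 days over naive was -0.09 (-0.20 to 0.01). Thinned cells with a UMI made up 23.5% in naive lung, 25.0% in 6 h lung and 17.0% in 14-day lung, against 18.2% to 20.7% in blood. The estimated limit for free RNA was at most 1.62%.

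Adenosine deaminase, a step that removes adenosine, was sparse in every group. Ada (ENSMUSG00000017697, chromosome 2 from 163726584 to 163750239, minus strand) ranged from 5.37 CPM (95% CI 4.47 to 6.39) in naive lung to 7.91 (6.63 to 9.37) in 14-day blood. No neighbours in the order were apart, but the intervals of the lowest and highest groups did not overlap. Its lung over blood ratio was -0.10 (-0.45 to 0.24) in naive mice, -0.26 (-0.56 to 0.04) at 6 h and -0.43 (-0.77 to -0.09) at 14 days. In blood, Ada was 0.34 (0.02 to 0.66) from naive at 6 h and 0.46 (0.12 to 0.79) at 14 days, and thinned to equal depth these were -0.04 and 0.39 with intervals that held 0. Between 1.62% and 2.33% of thinned cells had a UMI, and no group had more than 219 UMIs of Ada.

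Set beside all genes, Nt5e in 14-day lung was among the farthest from its reference groups. Lung over blood, 1 of the 4 genes (Nt5e) was higher past the fold in each library, and 6.77%, 6.32% and 6.23% of all tested genes were so in naive, 6 h and 14-day mice in turn. None of the 4 was lower past the fold, against 4.9%, 4.58% and 5.01% of genes. Only 0.505% of the genes tested at 14 days had a larger lung over blood ratio than Nt5e.

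For 14 days over naive in lung, 1 of the 4 (Nt5e) was higher and none lower, against 5.27% and 11.4% of genes, and 0.932% of genes had a larger ratio than Nt5e. In blood none of the 4 was past the fold either way, where 1.33% of genes were higher and 3.94% lower. At 6 h over naive none was past the fold, beside 0.664% of genes higher and 0.283% lower in lung and 0.529% and 0.432% in blood. The median of all tested genes was itself shifted, to -0.18 on the log2 scale for 14 days over naive in lung, to -0.15 for the same in blood, and to -0.10, -0.10 and -0.11 for lung over blood. Measured from the median of genes with at least 50 CPM, Entpd1 and Adora2a in 14-day lung stood -0.26 and -0.32 from naive, and the lung over blood value of Adora2a at 14 days changed sign to 0.04. The like value of Entpd1 was -0.05, and 56.8% of tested genes had a larger lung over blood ratio than Entpd1 at 14 days.

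**Figure D2:**
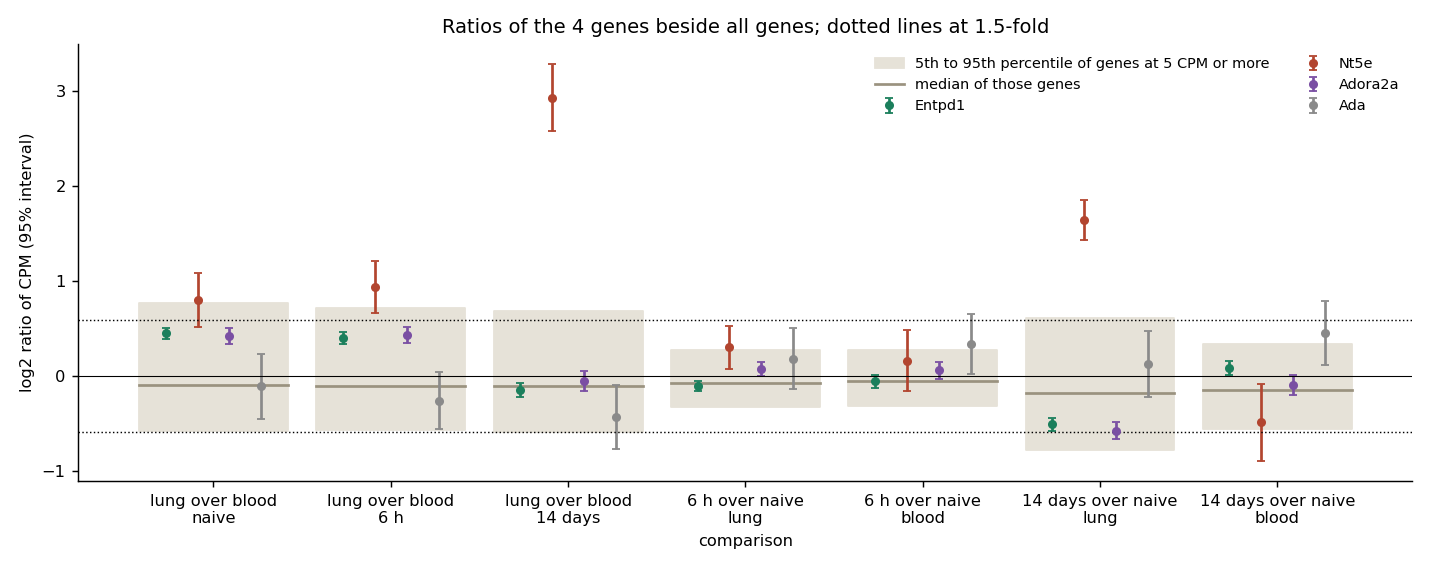
Log2 ratios of CPM with exact 95% counting intervals for the 4 genes in 7 comparisons (x axis), beside the 5th to 95th percentile (shaded) and median (line) of all genes that reach 5 CPM in either group; dotted lines mark 1.5-fold. Nt5e lies above the shaded range for lung over blood in all 3 libraries and far above it for 14 days over naive in lung, Entpd1 and Adora2a lie inside it in each of the 7, and Ada is above it in both blood comparisons (0.34 and 0.46).

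How the genes were spread over NK cell differentiation was read from Cd27, a receptor of less mature NK cells, and Itgam (CD11b), an integrin of mature ones. All class levels are from cells thinned to 3000 UMIs, and a cell without a UMI of a gene may still express it. Entpd1 was higher in cells with Itgam only than in cells with Cd27 only in all 6 groups. In naive lung it had 219 CPM in 1762 cells with Itgam only and 73.6 in 240 cells with Cd27 only, a log2 ratio of 1.57. In the other groups the ratio was 1.47 (naive blood), 1.32 (6 h lung), 1.70 (6 h blood), 1.51 (14-day lung) and 0.86 (14-day blood), each with an interval above 0.

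Cells with UMIs of both Klrg1, an inhibitory receptor, and Cx3cr1, the fractalkine receptor, also had more Entpd1 than cells with neither, with log2 ratios from 0.65 in naive lung to 1.02 in 6 h blood. Both genes mark terminally mature NK cells. Entpd1 thus followed each of these maturity markers, in lung and in blood.

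Nt5e took the opposite order in 14-day lung and showed none that could be told in the other groups. In 14-day lung it had 52.9 CPM in 315 cells with Cd27 only and 19.7 in 1268 cells with Itgam only, a log2 ratio of -1.42 for Itgam only over Cd27 only (95% CI -1.96 to -0.88). It had 8.81 CPM in 14-day lung cells with both Klrg1 and Cx3cr1 and 32.6 in those with neither. The lung ratio of 14 days over naive was 1.64 on the log2 scale (95% CI 1.24 to 2.07) in cells with neither. In cells with both, a rise was not detectable (-0.31, 95% CI -2.01 to 1.21), on 6 UMIs at 14 days and 12 in naive lung. Cells with Itgam only still had 3.05-fold more Nt5e in lung than in blood at 14 days (log2 ratio 1.61, 95% CI 0.85 to 2.44). In the other 5 groups the Itgam only over Cd27 only intervals all held 0, with at most 18 UMIs in the cells with Cd27 only.

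Adora2a differed little between these classes, with Itgam only over Cd27 only ratios from -0.14 in naive blood to 0.40 in 6 h blood, all with intervals that held 0. The exception by maturity was 14-day lung, where cells with both Klrg1 and Cx3cr1 had 92.5 CPM of Adora2a and cells with neither 60.0 (log2 ratio 0.63, 95% CI from 0.22). Between 14 days and naive, its lung level was lower in cells with Cd27 only (log2 ratio -0.69), with Itgam only (-0.48), with both (-0.59, interval including 0) and with neither (-0.57). Entpd1 had ratios of 14 days over naive in lung of -0.17, -0.23, 0.42 and -0.65 in the same order, of which the values for Cd27 only (95% CI -0.72 to 0.39) and both (-0.15 to 0.98) had intervals that held 0. Cells with neither UMI, where the last value was found, made up 52.0% of 14-day lung cells and 39.0% of naive lung cells.

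**Figure D3:**
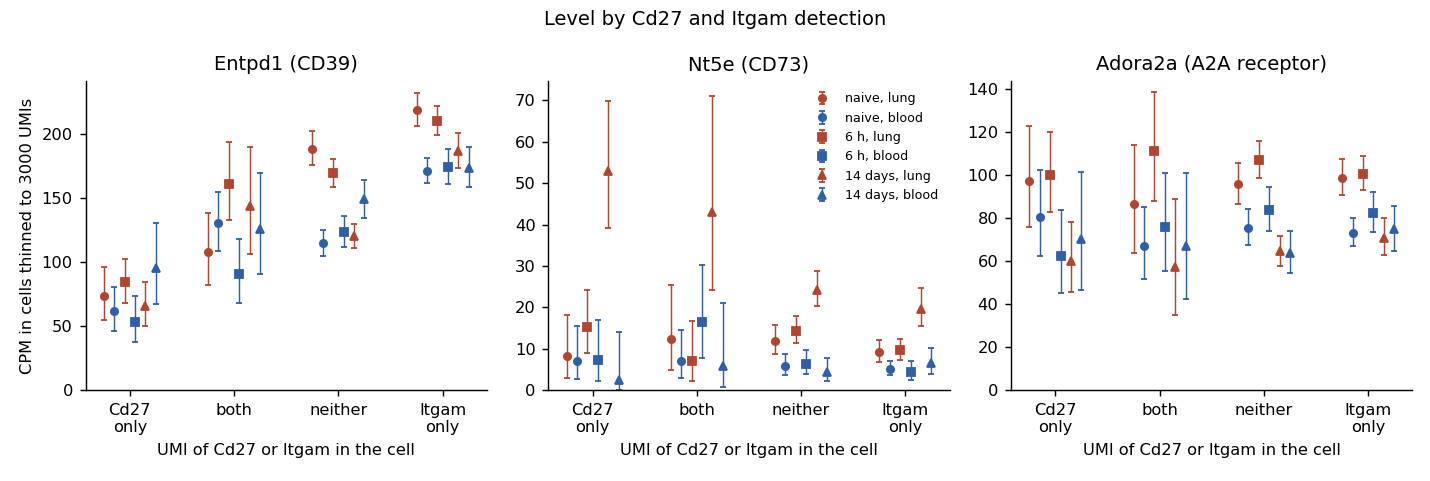
Entpd1, Nt5e and Adora2a in cells thinned to 3000 UMIs (CPM, y axis), by whether a cell had a UMI of Cd27 only, both, neither or Itgam only (x axis), for lung (red) and blood (blue) of the 3 libraries; error bars are exact Poisson 95% intervals. Entpd1 is higher with Itgam only than with Cd27 only in all 6 groups, Nt5e stands out in 14-day lung at 52.9 CPM with Cd27 only, and Adora2a is nearly level.

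Itga1 (CD49a, a collagen-binding integrin) and Pmepa1 (a target of TGF-beta signalling) are found in tissue-resident and TGF-beta-exposed NK cells. In 14-day lung, 1195 of 3537 thinned cells had a UMI of either, against 278 of 3590 in naive lung. Those 1195 cells had 43.2 CPM of Nt5e and the remaining 14-day lung cells 16.9, a log2 ratio of 1.35 (95% CI 1.00 to 1.71), and they held 155 of the 274 thinned Nt5e UMIs. The same cells had 105 CPM of Entpd1, against 158 in the remainder (log2 ratio -0.59, 95% CI -0.77 to -0.42). CD73 and CD39 transcripts thus lay on opposite sides of this division in 14-day lung. They did so in 6 h lung as well, at 0.79 for Nt5e (95% CI 0.12 to 1.40) and -0.30 for Entpd1 (-0.51 to -0.09). In 14-day blood Entpd1 was higher in cells with either UMI (0.35, 95% CI 0.004 to 0.68), and the Nt5e interval held 0. For both genes the intervals held 0 in naive lung, naive blood and 6 h blood.

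Nt5e was also higher in 14-day lung cells without a UMI of Itga1 or Pmepa1. Among such cells it was 3.05-fold higher in lung than in blood at 14 days (log2 ratio 1.61, 95% CI 1.04 to 2.22), and 0.74 above naive lung on the log2 scale (0.34 to 1.13). Entpd1 in cells with either UMI was 192 CPM in naive lung and 105 at 14 days (log2 ratio -0.88), and in cells with neither it was 191 and 158 (-0.27). Adora2a gave ratios of -0.80 and -0.43 in the same pair.

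Emb (embigin, a cell adhesion protein) divided CD39 and CD73 in all libraries. Cells with an Emb UMI had less Entpd1 in all 6 groups, with log2 ratios from -1.29 in 6 h lung, where the levels were 86.6 and 212 CPM, to -2.84 in 6 h blood, where they were 21.5 and 154. They had more Nt5e in 5 of the 6 groups with intervals above 0, from 0.68 in naive lung to 2.25 in 6 h blood. In 14-day lung the Nt5e levels were 42.7 CPM with Emb and 20.9 without. In 14-day blood the Nt5e ratio was 0.44 on 3 UMIs with Emb, and its interval held 0.

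**Figure D4:**
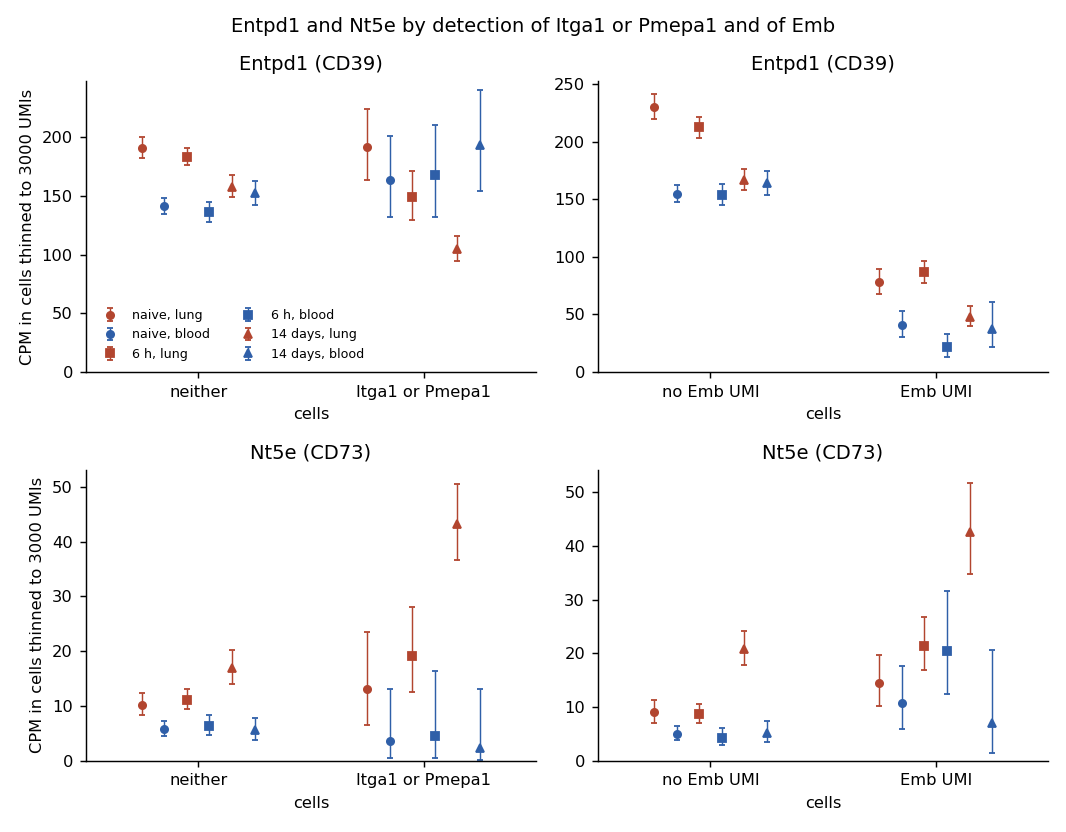
Entpd1 (top) and Nt5e (bottom) in cells thinned to 3000 UMIs (CPM, y axis), by a UMI of Itga1 or Pmepa1 (left) and of Emb (right), for lung (red) and blood (blue) of the 3 libraries; error bars are exact Poisson 95% intervals. Entpd1 is lower in cells with Emb in all 6 groups, and Nt5e is highest in 14-day lung cells with Itga1 or Pmepa1 (43.2 CPM) and with Emb (42.7 CPM).

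The summed level of a list of innate lymphoid cell markers was higher in 14-day lung as well. The 8 markers of type 1 innate lymphoid cells (ILC1), relatives of NK cells that pass the same gate, all had UMIs in each group and summed to 386 CPM in 14-day lung and to 122 to 190 CPM in the other groups. The leading marker was Inpp4b in 14-day lung (177 CPM) and Rora in every other group (40.9 to 116 CPM). The list also holds Itga1, used above, and its other markers were not compared singly. Inpp4b is also among the 5 genes whose counts went most with Nt5e over cells, so the class below is not independent of Nt5e. The 170 thinned 14-day lung cells with 2 or more of the 8 markers other than Itga1 had 76.5 CPM of Nt5e. The remainder had 23.3, and 14-day blood cells with fewer than 2 of these markers had 5.07, a ratio of 4.59-fold. Such cells may still be ILC1 with missed UMIs, and the part of ILC1 in the Nt5e values was not tested. Thinned 14-day lung cells with 2 or more of Cd3d, Cd3e, Cd3g and Trac had 103 CPM of Nt5e (95% CI 53.0 to 179), on 12 UMIs in 39 cells, against 25.0 in the others. The lineage depletion before the sort was directed at CD3, CD5 and TCR-beta among others. Both divisions were chosen after seeing the data.

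The T cell list was highest in the 14-day groups. It summed to 571 CPM in 14-day lung, 581 in 14-day blood and 479 to 501 elsewhere, with 2 of 9 markers at 0 in naive lung and in both 6 h groups and none at 0 in the others. It was led by Trbc1 (336 CPM in 14-day lung), which had a UMI in most cells of every group. The part of T cells in the Nt5e values was not tested. In 14-day lung, 280 cells with a B, myeloid, endothelial, epithelial, platelet or red cell marker held 148 of the 921 Nt5e UMIs (16.1%), against 6.39% of the Entpd1 UMIs. Endothelial cells express CD73, and the 11 cells of 14-day lung with an endothelial or red cell marker held 5 Nt5e UMIs. Red cell markers summed to 89.0 CPM in 14-day lung, where 0.112% of cells held all of them, and to at most 0.362 elsewhere. Between 255 and 730 cells per group had no T, B, myeloid, endothelial or epithelial marker. Among them the lung over blood log2 ratio of Nt5e was -0.22 in naive mice, 2.59 at 6 h and 0.98 at 14 days. In all cells it was 0.80, 0.94 and 2.92 in turn. The filtered values rest on few UMIs and moved both ways. Doublets within a tissue were kept, and their part in these values was not tested.

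Stress genes differed between lung and blood, whose handling before the sort differed as well. The 10 immediate early and stress genes, led by Junb, all had UMIs in every group and summed to 1741, 1771 and 1669.97 CPM in lung (naive, 6 h, 14 days) and to 417, 412 and 355 in blood. Among cells with fewer than 3 of their UMIs, lung over blood ratios were 0.54, 0.64 and -0.04 for Entpd1, 1.02, 0.80 and 1.91 for Nt5e, and 0.27, 0.41 and -0.21 for Adora2a at the 3 time points. Among cells with 3 or more, which made up 68.8% to 72.8% of lung and 10.8% to 13.9% of blood cells, the log2 ratios were 0.19, 0.01 and -0.40 for Entpd1 and 0.08, 0.13 and -0.45 for Adora2a, and Nt5e was 3.88-, 2.32- and 3.85-fold higher in lung, on 4 to 6 blood UMIs. In that class the intervals of Entpd1 at 6 h and of Adora2a in naive and 6 h mice held 0, and that of Entpd1 in naive mice was 0.0011 to 0.39. For 14 days over naive in lung, the Nt5e log2 ratio was 1.59 (interval 1.205 to 1.996) in cells with 3 or more. In cells with fewer than 3 it was 0.61 (0.0049 to 1.23), on 63 UMIs at 14 days and 38 in naive lung. Within 14-day lung, cells with 3 or more had 28.9 CPM of Nt5e and the others 19.0 (log2 ratio 0.61, interval 0.19 to 1.04). In the other groups that interval held 0. The part of stress genes in the higher 14-day lung level of Nt5e was not tested.

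Joint detection in a cell was set beside the product of the shares of both genes, the value expected if they were independent. Intervals here carry the counting error of the joint share only, with the product taken as fixed, and are no test of independence. Entpd1 and Adora2a were found together in 5.59% to 7.93% of thinned cells, 0.99 to 1.16 times the product. The interval lay just above 1 in 14-day lung (1.15, 95% CI 1.001 to 1.32). It held 1 in the others, only just so in 6 h blood (1.16, 0.9999 to 1.33). Entpd1 and Nt5e, the pair that would carry both enzymatic steps, were found together in 43 cells of 14-day lung (1.22%), 0.67 times the product (95% CI 0.48 to 0.90). There, 19.3% of cells with Nt5e had Entpd1, against 29.5% of cells without Nt5e. The same pair gave 0.41 times the product in naive blood (7 cells, 95% CI 0.17 to 0.85), and in the other 4 groups it gave 0.48 to 0.98 with intervals that held 1. Nt5e and Adora2a gave 0.914 to 1.504 times the product, all with intervals that held 1, and Nt5e and Ada met in at most 7 cells of a group. Entpd1 and Ada gave 0.53 times the product in naive lung (10 cells, 95% CI 0.25 to 0.98), with intervals that held 1 in the other groups, as did Adora2a and Ada in all 6. Missed detection at 3000 UMIs lowers all these shares, so cells that express both were undercounted.

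Granzyme and perforin genes were among those whose counts went most with Entpd1 over cells. Likeness was Pearson's r of log counts over the thinned cells of a group, averaged over the 6 groups, among 6323 or 6324 genes, as a description in which all genes of a cell share its library and conditions. Gzma and Gzmb (granzymes) led for Entpd1 with mean r of 0.20 and 0.19, followed by Prf1 (perforin, 0.17), Klra9 (a Ly49 receptor, 0.16) and Cdk14 (a cyclin-dependent kinase, 0.15), while those farthest below 0 were 4 ribosomal protein genes (Rps15a, Rpl32, Rps7 and Rplp1) and Emb, all between -0.17 and -0.18. For Nt5e the leading genes were Emb (0.07) and Gramd3 (0.06), then Ssbp2, Ikzf2 (Helios) and Inpp4b (a lipid phosphatase), and Gzma was farthest below 0 at -0.06. Adora2a went most with Ccl4 (0.10), Xcl1 (0.08), Tnfrsf9 (4-1BB, 0.08), Ccl3 (0.07) and Nr4a3 (0.07), which are chemokines and activation genes. For Ada no gene exceeded 0.04. Outside Entpd1 these values were weak and in sparse counts.

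The wider pathway was read from lists of 75 genes, the 4 included, of which 38 or 39 reached 5 CPM in a comparison. Lung over blood, 11 were higher and 2 lower past the fold in naive mice, 9 and 2 at 6 h, and 7 and 0 at 14 days, with list medians of -0.06, 0.00 and -0.07 on the log2 scale. Of all tested genes, 6.77%, 6.32% and 6.23% were higher and 4.9%, 4.58% and 5.01% lower in these comparisons. At 14 days over naive in lung, 1 was higher (Nt5e) and 11 lower, against 5.27% and 11.4% of all genes, with a list median of -0.17 beside -0.18 over all genes.

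Outside the cell, few other enzymes of the pathway were detected. Among ATP- and ADP-hydrolysing enzymes 2 of 6 reached 5 CPM, Entpd1 and Enpp1, which splits ATP to AMP. Enpp1 was 23.2 CPM in naive and 14.4 in 14-day lung (log2 ratio -0.69), past the fold. Alpl, the other AMP-hydrolysing enzyme listed, stayed under 5 CPM, so Nt5e was the only listed enzyme of that step at this level. Cd38, which opens the route from NAD, was 21.3 CPM in naive lung and 30.8 in naive blood, with lung over blood ratios of -0.53, -0.50 and -0.51 at the 3 time points, short of the fold. Of the 4 adenosine receptors Adora2a alone was above 5 CPM, Adora1 had no UMI in any group, and Adora2b and Adora3 reached at most 0.278 and 0.167 CPM.

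Among removal and transport genes, 0 of 6 genes at 5 CPM or more were past the fold in any of the 7 comparisons. In these, 0.529% to 6.77% of all tested genes were higher and 0.283% to 11.4% lower. Adk, which phosphorylates adenosine to AMP, had 17.3 CPM in 14-day lung and 12.2 in 14-day blood (log2 ratio 0.51). Pnp, which acts on inosine after Ada, lay between 44.2 and 53.6 CPM in all groups. The transporters Slc29a1 (ENT1) and Slc28a2 (CNT2) had lung over blood ratios of -0.30 and -0.46 at 14 days. Of 6 intracellular nucleotidases and AMP deaminases, Nt5c2 was higher in lung past the fold in naive mice (94.0 against 56.9 CPM) and at 14 days (60.3 against 40.2). Of all tested genes, 6.77% and 6.23% were so in turn.

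Of 4 genes for ATP release and P2 receptors, 3 (P2ry14, P2ry10 and P2rx4) were higher in lung past the fold in naive and 6 h mice. At 14 days 2 (P2ry14 and P2ry10) were. Beside these, 6.77%, 6.32% and 6.23% of all tested genes were higher in naive, 6 h and 14-day mice in turn. P2ry14, a receptor for UDP-sugars, had 62.3 CPM in naive lung and 18.5 in naive blood (log2 ratio 1.75). P2ry10 had 242 and 47.9 (2.34), and despite its name it responds to a lysophospholipid. P2rx4, an ATP-gated channel, had a ratio of 0.99 in naive mice and -0.16 at 14 days, and Panx1, an ATP release channel, had 0.51 and -0.08.

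Some listed genes that respond to cAMP or degrade it were higher in lung. Their link to the A2A receptor was not tested. Of 18 cAMP genes at 5 CPM or more, 6 were higher and 2 lower in naive lung than blood, and 5 and 2 at 6 h. Of 17 at 14 days, 3 were higher and 0 lower. Beside these, 6.77%, 6.32% and 6.23% of all tested genes were higher and 4.9%, 4.58% and 5.01% lower. List medians were 0.06, 0.07 and 0.06 on the log2 scale, beside -0.10, -0.10 and -0.11 over all genes. Among the cAMP genes that did not pass, Creb1 and Atf1, cAMP-responsive transcription factors, had ratios of 0.10 and -0.09 and Pde4a -0.20 in naive mice. Crem, a cAMP-responsive transcription factor, had 345 CPM in naive lung and 35.6 in naive blood (log2 ratio 3.27), 284 and 34.5 at 6 h (3.04), and 135 and 29.7 at 14 days (2.19). The phosphodiesterases Pde4d (2.17) and Pde4b (1.15) were higher in naive lung and remained so at 14 days (1.53 and 1.16), while Pde2a (1.22), Pde3b (0.97) and Pde7a (0.64) were past the fold in naive mice and not at 14 days. The lower genes were Adcy7, an adenylyl cyclase (-0.70), and Prkar1b, a regulatory subunit of protein kinase A (-0.70).

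Between naive and 14-day lung, 7 of 17 cAMP genes were lower past the fold and none higher, beside 11.4% and 5.27% of all genes, and the list median was -0.44 beside -0.18. They were Crem (-1.35), Pde4d (-0.89), Pde3b (-0.83), Pde2a (-0.79), Pde7a (-0.78), Pde8a (-0.63) and Adcy3 (-0.62). In blood 1 of 18 was lower (3.94% of all genes), and at 6 h none passed the fold in either tissue. The stress and immediate early list, given above, was higher in lung than in blood, as was Crem. Between naive and 14-day lung, the contrast of this paragraph, that list summed to 1741 and 1669.97 CPM. Its part in the cAMP values was not tested.

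**Figure D5:**
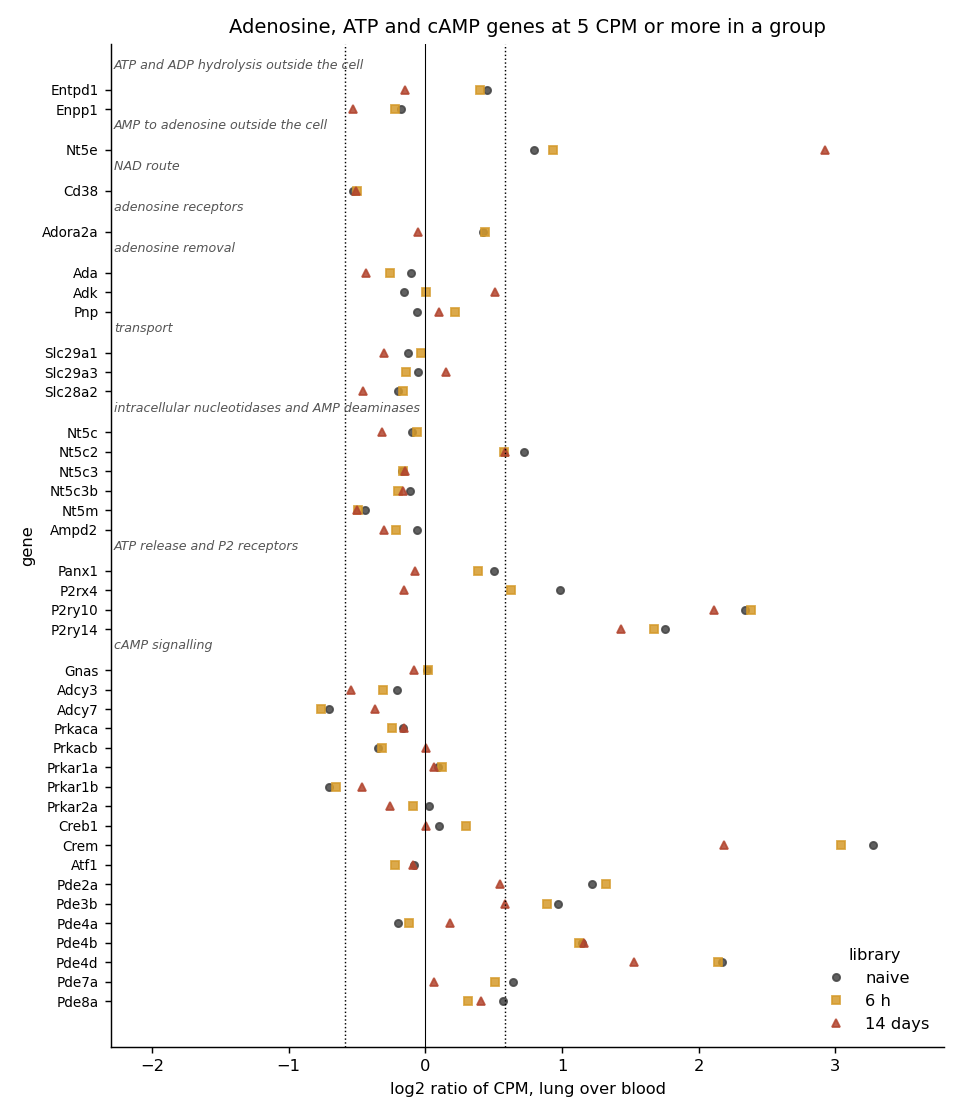
Log2 ratio of CPM, lung over blood (x axis), for each listed adenosine, ATP and cAMP gene with at least 5 CPM in a group, by library (naive circles, 6 h squares, 14 days triangles), grouped by role; dotted lines mark 1.5-fold. Nt5e moves from 0.80 to 2.92, Entpd1 and Adora2a move from 0.45 and 0.42 to just below 0, and Crem, Pde4d and P2ry10 lie far to the lung side in all 3 libraries.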

How the data were processed

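The authors deposited UMI counts per gene and hashtag for all barcodes of 3 libraries, made with Cell Ranger (7.1.0 in the matrix header) on GRCm38.p6 without normalization; the submitters' processing notes also name Seurat 5.0. Barcodes with 800 to 5000 genes and at most 6% mitochondrial counts were kept (8385 naive, 7584 at 6 h, 5785 at 14 days), and tissue was given where 90% or more of tag counts came from 1 hashtag, which left out 342, 158 and 141 barcodes. Doublets within a tissue were kept. Counts were summed per group (16936897 to 35922737 UMIs) and scaled to CPM. Ratios have exact intervals conditional on both sums, and shares have Clopper-Pearson intervals, at 95%. For thinning, 6 to 86 cells per group under 3000 UMIs were left out. Free RNA was limited to 2.81% (naive), 4.15% (6 h) and 1.05% (14 days) of counts, from markers of other cells in barcodes with at most 100 counts. Each limit is the lowest upper Poisson bound over the markers with at least 20 counts there. Picked as the lowest, it may understate free RNA and is not a 95% limit. The genes, lists and classes were chosen with earlier results of these data known. Named beyond the 4 genes are listed pathway genes at 5 CPM or more, class markers and the 5 genes most like each. Positions are from GENCODE M21 (GRCm38), in which all 4 identifiers matched. On its strand, 3 gene models overlap Entpd1 and share no exon bases with it, and none of them is in the deposited gene lists. Whether intronic reads were counted is not stated. Python 3.11.15, numpy 2.4.6, scipy 1.17.1, pandas 2.3.3 and scikit-image 0.26.0 were used, and the ratio code was tested on simulated data. Alternatives changed the filters, hashtag rule, totals, free RNA, marker-bearing cells, depth and fold.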

Additional observations from a re-analysis of the deposited data

Results flagged for a closer look

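Entpd1 had opposite signs under the same contrast. Its lung over blood log2 ratio was 0.45 in naive mice and 0.40 at 6 h and -0.15 at 14 days, and its 14 days over naive ratio was -0.51 in lung, against 0.087 in blood. All 5 counting intervals lay clear of 0, but with 1 library per time point the difference was not tested. Measured from the median of genes with at least 50 CPM, the 14-day lung over blood ratio was -0.05.

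Nt5e also went opposite ways in the tissues, where 14 days over naive gave 1.64 on the log2 scale in lung and -0.49 in blood. The difference was not tested, and the blood value rests on 73 UMIs at 14 days and was -0.09 (95% CI -0.73 to 0.52) at equal depth.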

How the results depend on the processing

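Of 28 log2 ratios of the 4 genes, 18 kept their sign under all 13 alternatives, and 40 of 364 values left the main interval. Leaving out cells with any T, B, myeloid, endothelial or epithelial marker keeps few cells, since Trbc1 is counted in most. This filter turned the naive lung over blood ratio of Nt5e to -0.22 and the 6 h one to 2.59. Under it the higher count past 1.5-fold was 0 for lung over blood in naive mice, the lower count was 1 for lung over blood at 6 h, and the higher count was 1 for 6 h over naive in lung, 1 in blood and 1 for 14 days over naive in blood. At a fold of 2 the higher counts for lung over blood were 0 in naive and 0 in 6 h mice, where Nt5e stood at 1.74- and 1.91-fold. For none of the changed settings in this paragraph is the share of all genes given. These counts therefore describe the 4 genes only and are not set against a background. With 500 to 6000 genes and 10% mitochondrial counts, 1 gene was lower for 14 days over naive in lung. For 14 days over naive in blood, 1 was higher with 1200 to 4000 genes and 4%, 1 was higher when ratios were set against the all-gene median, and 1 was lower without cells with 2 or more of Cd3d, Cd3e, Cd3g and Trac, an alternative added after seeing the data. Nt5e lung over blood at 14 days ranged from 0.98 to 3.06. The lowest value came without cells with any T, B, myeloid, endothelial or epithelial marker. The highest came without cells with 2 or more of Cd3d, Cd3e, Cd3g and Trac. For 14 days over naive in lung, Nt5e ranged from 1.31 at equal depth, also added after seeing the data, to 1.89. The causes were not tested. The labels carry no replicate numbers. Lung and blood were compared within each library, and a test over the 3 libraries as pairs, which would treat the time points as replicates, was not made. Depth limits Ada and blood Nt5e, at no more than 219 UMIs a group.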
